A study of Homo sapiens with 6 samples.

Results

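Liver plasma proteins are the proteins that hepatocytes release into blood: carriers such as albumin, apolipoproteins, clotting factors and their inhibitors, and the complement proteins of innate immunity. The 57 genes described here were chosen by name, as rows of the deposited table whose symbol was on the list, and each name matched 1 of the 61806 rows. Serpins and APOE were left out of the list. Hepatocytes are the main source of most of these proteins, and HepG2, an established human hepatoma line, is commonly used as a model because it secretes many of them. Some members have wider sources: the complement regulators CD55, CD46 and CD59 and tissue factor (F3) sit on the surface of many cell types, and clusterin (CLU), protein S (PROS1) and several complement proteases are made outside the liver too. Clotting proceeds through a series of proteases to the cleavage of fibrinogen, and is checked by inhibitors such as TFPI and by the protein C system. Complement proceeds from its starting proteases to C3 and C5, and is checked on cell surfaces by CD55, CD46 and CD59.

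RNA sequencing was done on 3 libraries labelled as HepG2 cells with LAPTM4B knocked down (titled shLAP) and 3 libraries labelled as control HepG2 cells (titled NC, genotype WT). The design text gives both groups as CD133-positive cells. LAPTM4B encodes a lysosomal membrane protein, and the series title places the study in work on LAPTM4B, YAP and stem-like properties of liver cancer. The labels do not say whether a group is 1 clone, how many hairpins were used or whether the replicates were separate cultures, so p-values measure the spread between these libraries, which may be technical.

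Gene counts summed to 15204269 to 16303949 in knockdown libraries and to 15667396 to 19987318 in control libraries. LAPTM4B was at 227, 237 and 232 CPM (counts scaled to library size, with TMM factors) in knockdown libraries and at 327, 325 and 350 CPM in control libraries, so it fell by 0.53 on the log2 scale (SE 0.04; adjusted p = 3.25e-12, edgeR). The liver identity in the labels was scarcely seen in the transcripts. Of 12 hepatocyte markers, ALB, APOA1 and APOB had no count in any library and 5 others, TTR, APOA2, AHSG and TF among them, had at most 3 counts in every library. The summed level of the 12 was 9.25 to 9.99 CPM in knockdown libraries and 18.2 to 20.2 CPM in control libraries. Most of that sum was FGB, a gene of the list described below. FGB was at 5.36 to 5.57 CPM in knockdown libraries and 11.3 to 12.8 CPM in control libraries. SERPINA1 had 4, 0 and 5 counts in knockdown libraries and 43, 49 and 35 in control libraries. HNF4A did not pass the test. HepG2 is known to make albumin, apolipoproteins and AFP, so the low counts of those genes go against the label. Whether the cells are HepG2 was not tested, and the missing transcripts below hold for these libraries, not for HepG2 at large. The 6 epithelial markers summed to 1465 to 1488 CPM in knockdown libraries and 1204 to 1304 CPM in control libraries. Sums in knockdown and control libraries were 16.8 to 20.02 and 10.2 to 13.01 CPM for 7 fibroblast markers, 60.4 to 66.9 and 51.97 to 55.98 CPM for 6 endothelial markers, 1.49 to 2.63 and 4.19 to 5.34 CPM for 7 leukocyte markers, and 4.08 to 4.55 and 5.90 to 7.26 CPM for 5 platelet markers. Single markers did not all follow these sums. Of the 4 epithelial markers tested, KRT7 (on average 251 CPM in knockdown and 38.8 CPM in control libraries) and KRT8 (777 and 674 CPM) were higher in the knockdown. KRT18 (442 CPM in knockdown and 537 CPM in control libraries) and EPCAM (2.60 and 6.32 CPM) were lower. The endothelial sum was mostly ESAM (59.7 to 65.9 CPM in knockdown libraries and 48.9 to 54.8 CPM in control libraries), while PECAM1 had 3, 3 and 3 counts in knockdown libraries and 37, 41 and 18 in control libraries. The fibroblast sum was mostly COL1A1 (10.4 to 12.6 CPM in knockdown libraries and 8.36 to 11.7 CPM in control libraries), while PDGFRB had 45, 48 and 57 counts in knockdown libraries and 6, 2 and 7 in control libraries, and FAP 28, 37 and 31 in knockdown libraries and 3, 8 and 2 in control libraries. LYZ, PPBP, PF4 and GP9, defining markers of leukocytes or platelets, had no count. The part of any of these lists in the results below was not tested. PROM1, which encodes CD133, had 12, 6 and 9 counts in knockdown libraries and 3, 1 and 1 in control libraries. These counts were too few to test, so the CD133-positive label was scarcely seen in the transcripts of either group. RNA does not measure CD133 protein on the cell surface. In bulk RNA, fewer cells of a type and less RNA per cell cannot be told apart.

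Of the 57 genes, 11 had no count in all 6 libraries, 10 had at most 3 counts in every library, and 9 had a few more counts but fell under the count filter. The remaining 27 were tested with edgeR. A count of 0 allows up to 3 counts, which is 0.150 CPM in the deepest library and 0.197 CPM in the shallowest; this limit covers counting error only. Among the 27, 6 were higher in the knockdown, 14 were lower and 7 missed the threshold of an adjusted p under 0.05. Over all 16354 genes tested, 28.0% were higher and 27.9% lower by the same rule (4584 and 4559 genes), 55.9% in all, against 22.2% and 51.9% of the tested members. With limma on log2(FPKM + 0.1), which changes the test, the scale and the genes kept together, 4496 genes were called higher and 2915 lower of 13018. The same without a filter called 4290 higher and 3136 lower. The median log2 change was -0.24 over the 27 members and 0.01 over all genes tested. CPM values of the 2 groups did not overlap for 21 of the 27, against 60.4% of all genes tested. The 27 are not the whole list: FGA, FGG and TFPI passed the filter only through their control libraries and F10 only through its knockdown libraries.

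**Figure D1:**
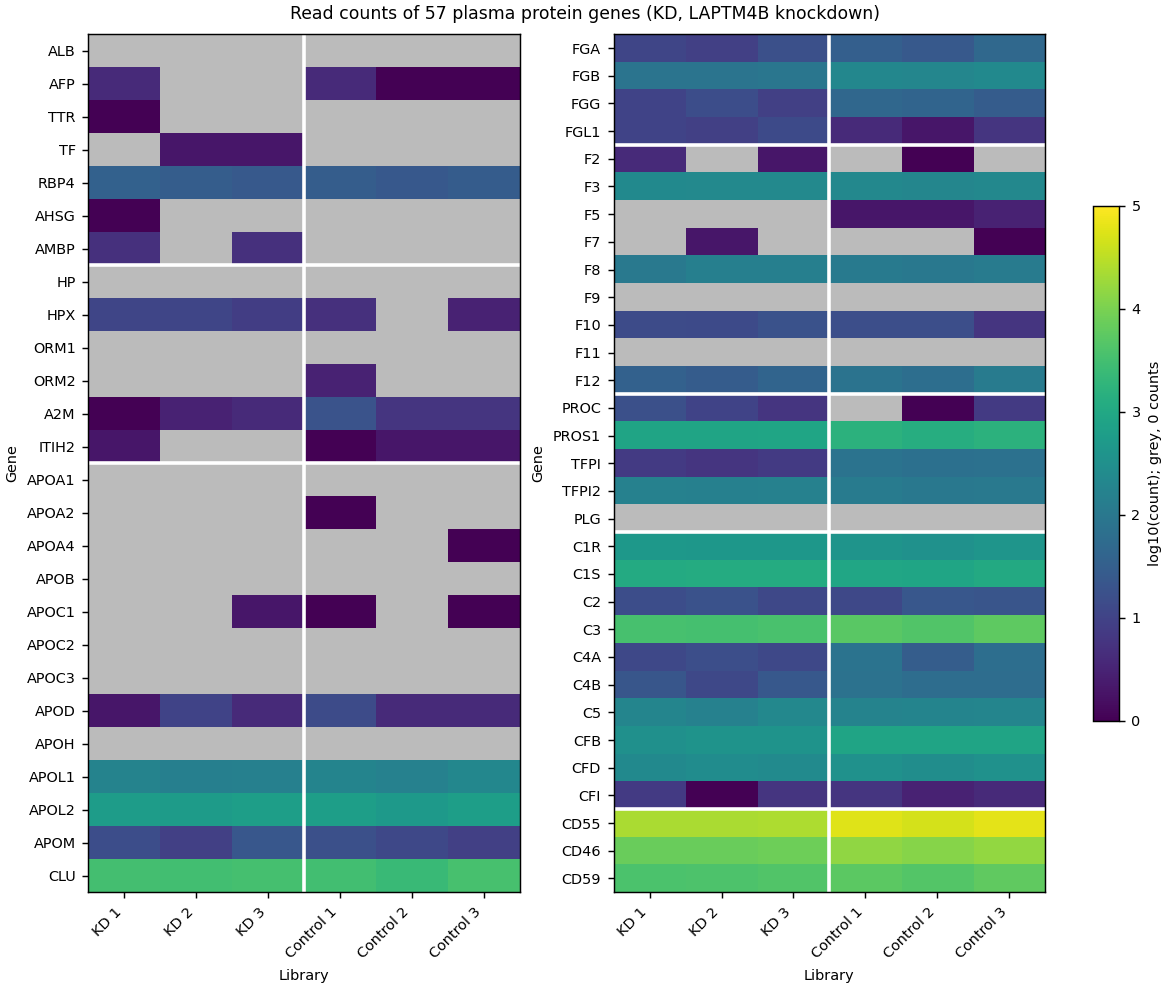
Read counts of the 57 genes in each library, as colour on a log10 scale with 0 counts in grey; columns are the 3 knockdown (KD) and 3 control libraries, and white lines separate gene groups. The carriers other than RBP4 and most apolipoproteins are grey or near 0 in all 6 libraries, whereas CD55, CD46, CD59, C3 and CLU have at least 2469 counts in each.

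Carriers other than RBP4 and acute phase proteins had few or no counts in both groups. Albumin (ALB), haptoglobin (HP), which binds free haemoglobin, and the acid glycoprotein ORM1 had no count in any library. Transthyretin (TTR) and fetuin-A (AHSG) each had 1 count in 1 knockdown library. Transferrin (TF), the plasma iron carrier, had 0, 2 and 2 counts in knockdown libraries and none in control libraries. The acid glycoprotein ORM2 had 3 counts in 1 control library, and the hyaluronan-binding heavy chain ITIH2 had 2 counts or fewer in each library. AFP, the fetal counterpart of albumin and a usual marker of HepG2, had 4, 0 and 0 counts in knockdown libraries and 4, 1 and 1 in control libraries. These genes were at or near the limit of detection whichever group is read.

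RBP4, the plasma carrier of retinol, was the one carrier with enough reads to test. It was at 2.23, 1.94 and 1.496 CPM in knockdown libraries and at 1.67, 1.56 and 1.499 CPM in control libraries (edgeR adjusted p = 0.474), and the groups overlapped. Haemopexin (HPX), which binds free haem, had 11, 11 and 8 counts in knockdown libraries and 5, 0 and 3 in control libraries. AMBP, the precursor of alpha-1-microglobulin and bikunin, had 5, 0 and 5 counts in knockdown libraries and 0 in each control library. The broad protease inhibitor A2M went the other way, with 1, 3 and 4 counts in knockdown libraries and 19, 6 and 6 in control libraries. None of these 3 passed the count filter. When edgeR was run without that filter, HPX (adjusted p = 0.0183) and AMBP (0.0313) were called higher and A2M (0.0452) lower, where 13.3% and 13.4% of 34501 genes were called higher and lower.

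Apolipoproteins of the circulating lipoproteins were also missing. APOA1, the main protein of HDL, APOB, the main protein of LDL and VLDL, the lipoprotein lipase cofactor APOC2, its inhibitor APOC3, and APOH, which binds phospholipids, had no count in any library. APOA2 and APOA4 had 1 count each in all, both in control libraries, and APOC1 had 0, 0 and 2 counts in knockdown libraries and 1, 0 and 1 in control libraries. APOD, a lipocalin made in many tissues, had 2, 10 and 4 counts in knockdown libraries and 14, 4 and 4 in control libraries. The lipoproteins' structural proteins therefore had next to no transcripts in these libraries.

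Of the 13 apolipoprotein genes, 4 had enough reads to test, and CLU rose. Clusterin (CLU), an extracellular chaperone also called apolipoprotein J, was at 209, 198 and 199 CPM in knockdown libraries and at 169, 160.0 and 180 CPM in control libraries. Every knockdown library was above every control library, and CLU rose by 0.25 on the log2 scale (SE 0.04; edgeR adjusted p = 1.39e-05). APOL2, an intracellular apolipoprotein L, was at 36.4, 36.0 and 37.2 CPM in knockdown libraries and at 35.98, 31.7 and 32.8 CPM in control libraries (edgeR adjusted p = 0.121). APOL1, the secreted member of that family that lyses trypanosomes, was at 11.2, 9.25 and 8.86 CPM in knockdown libraries and 10.01, 10.05 and 10.8 CPM in control libraries (edgeR adjusted p = 0.602). APOM, a carrier of sphingosine-1-phosphate on HDL, was at 0.956, 0.582 and 1.38 CPM in knockdown libraries and 0.945, 0.778 and 0.465 CPM in control libraries (edgeR adjusted p = 0.404). Apart from CLU, no apolipoprotein gene passed the test, and APOL1 and APOM overlapped between groups.

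All 3 fibrinogen chains fell in the knockdown. Fibrinogen is a hexamer of paired alpha, beta and gamma chains, encoded by neighbouring genes on chromosome 4, and thrombin converts it to the fibrin of clots. Because the 3 genes moved the same way, their RefSeq promoter sequences (GRCh38.p14) are shown. Each is the 250 bases before the start that the RefSeq promoter table gives, 5′ to 3′ on the gene's strand. That start differs from the start of the gene coordinates given with the expression values for all 3 genes: the FGG window lies inside those coordinates, and no GENCODE transcript of FGA or FGB was found to begin at the table's start. Capitals mark the core of IL-6 response elements known from fibrinogen genes (CTGGGA), searched on both strands.
FGA, chr4:154590743-154590992, minus strand: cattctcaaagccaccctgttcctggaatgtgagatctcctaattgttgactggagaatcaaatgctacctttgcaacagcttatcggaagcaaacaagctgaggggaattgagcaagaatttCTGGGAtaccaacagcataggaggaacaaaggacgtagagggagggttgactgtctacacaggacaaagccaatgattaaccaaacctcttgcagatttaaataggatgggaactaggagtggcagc
FGB, chr4:154562730-154562979, plus strand: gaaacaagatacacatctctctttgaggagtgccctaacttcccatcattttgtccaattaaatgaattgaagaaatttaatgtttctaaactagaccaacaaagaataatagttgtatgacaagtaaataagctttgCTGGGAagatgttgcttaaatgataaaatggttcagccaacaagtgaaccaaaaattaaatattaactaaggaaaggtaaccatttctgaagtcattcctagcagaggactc
FGG, chr4:154612657-154612906, minus strand: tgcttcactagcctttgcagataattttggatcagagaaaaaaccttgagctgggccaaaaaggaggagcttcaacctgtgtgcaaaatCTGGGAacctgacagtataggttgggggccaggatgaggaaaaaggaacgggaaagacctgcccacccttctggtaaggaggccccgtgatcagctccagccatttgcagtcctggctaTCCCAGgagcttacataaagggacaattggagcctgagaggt
The IL-6 response core was in the FGA, FGB and FGG windows and in 28.8% of 27305 RefSeq promoter windows of that length. The core was chosen because it is known from fibrinogen genes, so its matches there do not measure enrichment. Any part of it in the falls was not tested. A match is a match of letters and not a measured site. FGB has 2 starts in the table and the first is shown.

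FGB (chromosome 4, 154563011 to 154572807, hg38), the most abundant of the 3 chains per length, was at 5.36, 5.43 and 5.57 CPM in knockdown libraries and at 11.3, 12.8 and 12.04 CPM in control libraries. FGA (chromosome 4, 154583128 to 154590745) was at 0.701, 0.582 and 1.02 CPM in knockdown libraries and at 1.78, 1.62 and 2.53 CPM in control libraries. FGG (chromosome 4, 154604134 to 154612967) was at 0.638, 0.970 and 0.539 CPM in knockdown libraries and at 2.56, 2.59 and 1.499 CPM in control libraries. For each chain the highest knockdown library was below the lowest control library. FGB fell by 1.14 on the log2 scale (SE 0.13; edgeR adjusted p = 2.03e-08), FGA by 1.36 (SE 0.35; adjusted p = 0.00162) and FGG by 1.62 (SE 0.36; adjusted p = 3.71e-04). FGA and FGG rested on 9 to 17 counts per knockdown library, and with limma on log2(FPKM + 0.1) without a filter their adjusted p values were 0.0814 and 0.0501. In FPKM, which divides by gene length, FGB was at 1.27 in the knockdown and 2.69 in the control, FGA at 0.200 in the knockdown and 0.493 in the control, and FGG at 0.200 in the knockdown and 0.603 in the control, so the 3 chains were not at equal levels in either group. FGL1, a fibrinogen-like hepatokine, had 10, 9 and 13 counts in knockdown libraries and 4, 2 and 6 in control libraries; it was under the filter, and without a filter its adjusted p was 0.0550 (edgeR).

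Some clotting proteases of the liver had no or few counts, and of the 4 procoagulant factors that could be tested 2 rose, 1 fell and 1 showed no call. Factors IX (F9) and XI (F11), proteases of the intrinsic pathway, and plasminogen (PLG), the precursor of plasmin, had no count in any library. Prothrombin (F2) had 4, 0 and 2 counts in knockdown libraries and 0, 1 and 0 in control libraries. Factor VII (F7), the partner of tissue factor, had 0, 2 and 0 counts in knockdown libraries and 0, 0 and 1 in control libraries. The cofactor gene F5 had no count in knockdown libraries and 2, 2 and 3 in control libraries. F10, the protease at which the intrinsic and extrinsic pathways meet, was at 0.893, 0.841 and 1.08 CPM in knockdown libraries and at 0.890, 1.04 and 0.310 CPM in control libraries (edgeR adjusted p = 0.497).

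F12, the protease that starts contact activation, fell 2.32-fold. It was at 2.23, 1.81 and 2.39 CPM in knockdown libraries and at 4.50, 4.15 and 6.25 CPM in control libraries, with no overlap (log2 change -1.22, SE 0.22; edgeR adjusted p = 3.43e-05). In GENCODE release 29, 14.4% of its exonic bases lie under exons of GRK6, which was expressed, so some of its reads may belong there. Tissue factor (F3), the membrane protein that starts extrinsic clotting, was at 14.8, 14.8 and 13.6 CPM in knockdown libraries and at 12.01, 12.6 and 11.1 CPM in control libraries. F8, the cofactor of factor IX, was at 6.63, 9.18 and 8.44 CPM in knockdown libraries and at 6.28, 6.61 and 6.15 CPM in control libraries. Both were higher in every knockdown library than in any control library, but by small amounts: F3 rose by 0.28 on the log2 scale (SE 0.10; edgeR adjusted p = 0.0255) and F8 by 0.35 (SE 0.15; adjusted p = 0.0439). The F3 call did not hold in DESeq2 (adjusted p = 0.118), nor in edgeR without knockdown replicate 1 (0.0722) or 2 (0.0766) or without control replicate 1 (0.0554) or 3 (0.0819). The F8 call did not hold in DESeq2 (0.167), in edgeR without a count filter (0.0604) or with a replicate block (0.0571), in limma on log2(FPKM + 0.1) without a filter (0.331), nor in edgeR without knockdown replicate 2 (0.210) or 3 (0.119) or without control replicate 1 (0.102), 2 (0.0511) or 3 (0.0748).

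**Figure D2:**
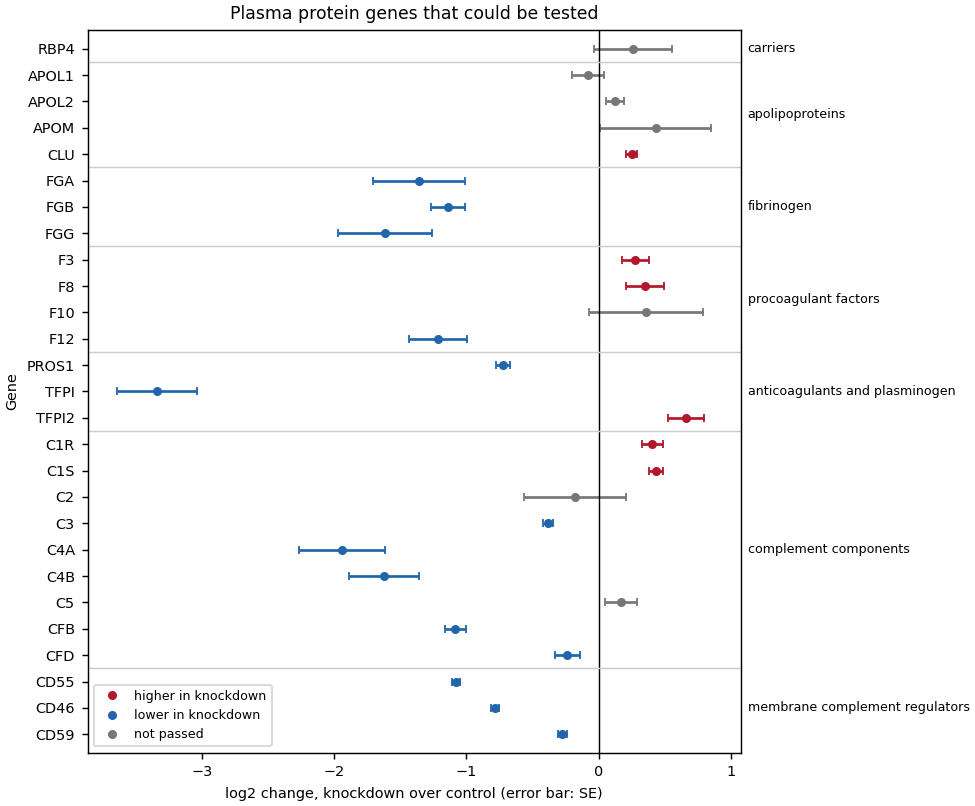
log2 change of the 27 tested genes, knockdown over control, with its SE as error bar, grouped by role; red and blue mark genes called higher and lower at an edgeR adjusted p under 0.05. TFPI has the lowest value at -3.34, the 3 fibrinogen chains and the 3 membrane complement regulators lie below 0, and no gene lies above 0.66. TFPI, FGA and FGG passed the count filter only through their control libraries, and F10 only through its knockdown libraries.

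Among the inhibitors of clotting, TFPI and protein S fell and TFPI2 rose. TFPI (chromosome 2, 187464230 to 187565760), which blocks the complex of tissue factor and factor VII, was at 0.446, 0.388 and 0.419 CPM in knockdown libraries and at 4.56, 4.54 and 3.83 CPM in control libraries. That is 6 to 7 counts per knockdown library against 70 to 82 per control library, and TFPI fell by 3.34 on the log2 scale (SE 0.30; adjusted p = 4.05e-10, edgeR), the deepest fall among the 27 genes. It passed the count filter only through its control libraries. Its relative TFPI2 (chromosome 7, 93885396 to 93890753), a protease inhibitor of the extracellular matrix, was at 10.01, 9.90 and 9.22 CPM in knockdown libraries and at 6.62, 6.55 and 5.32 CPM in control libraries. TFPI2 rose 1.58-fold (log2 change 0.66, SE 0.14; edgeR adjusted p = 1.74e-04), so the 2 related genes moved in opposite directions and neither overlapped between groups. Protein S (PROS1; chromosome 3, 93873051 to 93980003), the cofactor of activated protein C, was at 51.95, 54.8 and 51.7 CPM in knockdown libraries and at 92.5, 84.3 and 85.1 CPM in control libraries. It fell 1.65-fold (log2 change -0.73, SE 0.05; edgeR adjusted p = 4.59e-12). Protein C itself (PROC) was under the filter, with 17, 10 and 6 counts in knockdown libraries and 0, 1 and 7 in control libraries, which overlap; edgeR without a filter called it higher (adjusted p = 0.00737).

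Every complement component on the list had some counts, and 9 of 10 could be tested, against 1 of 7 carriers. This holds for the genes listed: of 29 further complement genes, described below, 7 could be tested and 7 had no count. Of the 9 tested components on the list, 5 fell, 2 rose and 2 missed the threshold (55.6% lower and 22.2% higher, against 27.9% and 28.0% of all genes tested). The proteases that start the classical pathway rose. C1R was at 30.2, 28.97 and 26.4 CPM in knockdown libraries and at 21.6, 22.2 and 20.8 CPM in control libraries, and C1S, its substrate and partner in the C1 complex, was at 71.4, 76.5 and 72.8 CPM in knockdown libraries and at 50.8, 57.2 and 55.6 CPM in control libraries. The groups did not overlap for either gene, and the changes were close in size (C1R: log2 change 0.41, SE 0.08, edgeR adjusted p = 8.24e-05; C1S: 0.43, SE 0.05, adjusted p = 1.5e-07). Exons of the related C1RL gene, which was expressed, cover 11.4% of the exonic bases of C1R.

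The C4 genes, whose product is the next to be cleaved in the classical pathway, fell. C4A and C4B (chromosome 6, 31982057 to 32002681 and 32014795 to 32035418) are near-identical copies, so their reads may have been divided between them in either direction. In GENCODE release 29 a coding transcript of each aligned over 5427 aligned bases with 13 differences, an identity of 99.8%, and 87.8% of the windows of 100 bases of the C4A transcript also occur in C4B. The coding stretch densest in differences is shown for both, because such stretches tell their reads apart. Capitals mark the 5 bases that differ.
C4A: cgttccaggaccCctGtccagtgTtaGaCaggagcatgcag
C4B: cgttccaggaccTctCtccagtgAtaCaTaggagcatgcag
C4A was at 0.765, 1.04 and 0.718 CPM in knockdown libraries and at 4.39, 1.94 and 3.26 CPM in control libraries. C4B was at 1.40, 0.776 and 1.44 CPM in knockdown libraries and at 4.17, 3.89 and 3.20 CPM in control libraries. Both fell (C4A: log2 change -1.94, SE 0.33, edgeR adjusted p = 1.32e-05; C4B: -1.62, SE 0.27, adjusted p = 9.71e-06). With the counts of both genes summed, an alternative chosen after seeing the data, the log2 change was -1.77 (SE 0.20; edgeR adjusted p = 2.76e-08). With limma on log2(FPKM + 0.1) without a filter, C4A on its own did not pass (adjusted p = 0.0540).

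C3, the protein on which all complement pathways meet, was the most abundant complement component, at 19.6 FPKM in the knockdown and 24.5 FPKM in the control. In CPM it was at 223, 221 and 223 in knockdown libraries and at 290.1, 285 and 294 in control libraries, and it fell 1.30-fold (log2 change -0.38, SE 0.03; edgeR adjusted p = 4.85e-10). Factor B (CFB), the protease that amplifies C3 cleavage in the alternative pathway, was at 20.97, 23.99 and 21.9 CPM in knockdown libraries and at 46.2, 53.2 and 42.8 CPM in control libraries. CFB fell 2.12-fold (log2 change -1.08, SE 0.08; edgeR adjusted p = 6.28e-12). Factor D (CFD), which cleaves factor B, was at 14.7, 17.1 and 14.8 CPM in knockdown libraries and at 19.1, 18.1 and 17.8 CPM in control libraries. Its fall of 0.24 on the log2 scale (SE 0.09; edgeR adjusted p = 0.0356) was lost with DESeq2 (0.138), with edgeR without a count filter (0.0655), with limma on log2(FPKM + 0.1) (0.0614; 0.142 without a filter) and on log2(FPKM + 1) (0.0613), and with edgeR without knockdown replicate 1 (0.132) or 3 (0.128) or without control replicate 1 (0.102).

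C5, from which the membrane attack complex starts, was at 11.9, 10.3 and 12.7 CPM in knockdown libraries and at 9.79, 11.7 and 9.61 CPM in control libraries (edgeR adjusted p = 0.233). C2, the protease partner of C4, was at 0.956, 1.16 and 0.718 CPM in knockdown libraries and at 0.667, 1.49 and 1.09 CPM in control libraries (edgeR adjusted p = 0.716). Both overlapped between groups. Factor I (CFI), which inactivates C3b and C4b, had 7, 1 and 6 counts in knockdown libraries and 6, 3 and 4 in control libraries and was not tested.

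**Figure D3:**
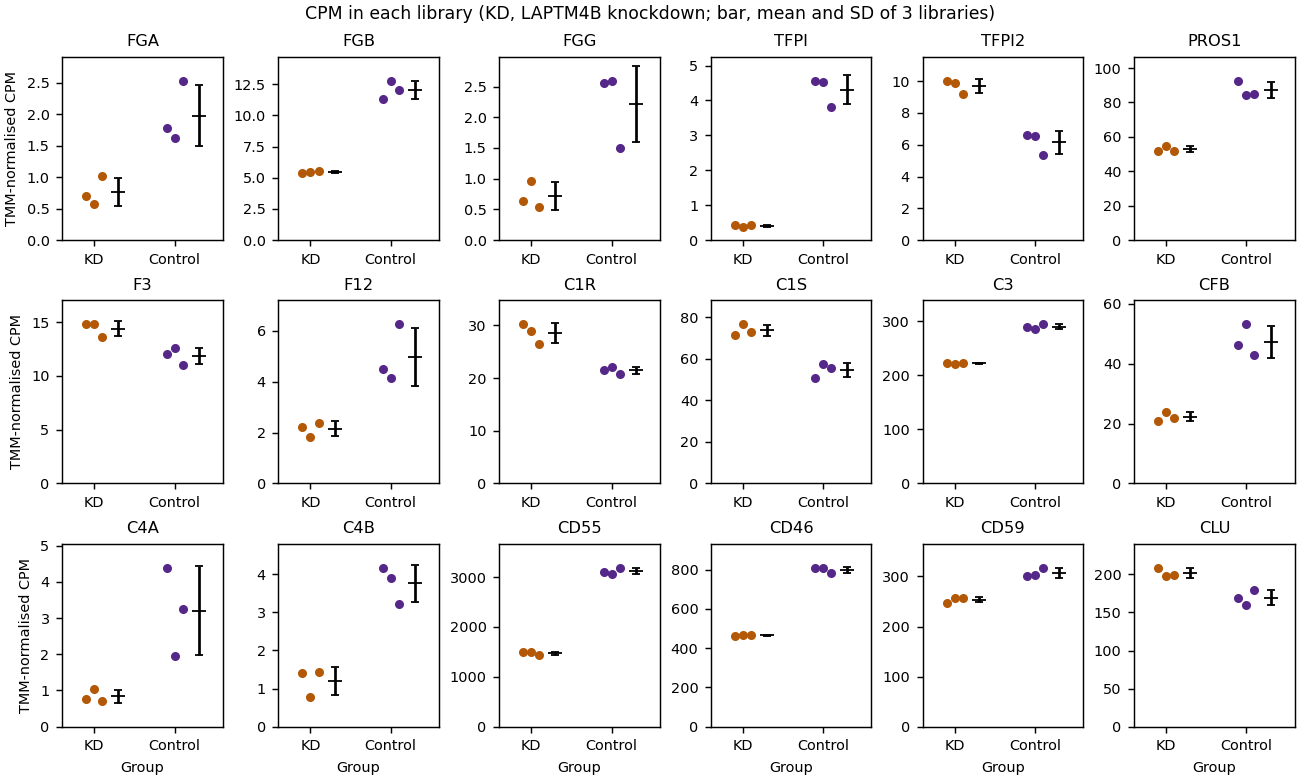
TMM-normalised CPM of 18 tested genes in each library, with each axis starting at 0; knockdown (KD) is left of control in each panel and bars show the mean and SD of 3 libraries. CD55 lies between 1442 and 1495 CPM in knockdown libraries and between 3060 and 3189 CPM in control libraries. The 18 genes all come from the 21 of 27 tested members whose groups do not overlap, so no panel can show overlap. Groups did not overlap for 60.4% of all genes tested.

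The membrane regulators that protect cells from complement were the most abundant genes of the list together with CLU, and all 3 fell. CD55 (chromosome 1, 207321519 to 207386804), which speeds the decay of C3 convertases, was at 1492, 1495 and 1442 CPM in knockdown libraries and at 3107, 3060 and 3189 CPM in control libraries. CD46 (chromosome 1, 207752037 to 207795513), the cofactor with which factor I cleaves C3b and C4b, was at 459.9, 469 and 466 CPM in knockdown libraries and at 806, 810.1 and 783 CPM in control libraries. CD59 (chromosome 11, 33703010 to 33736479), which blocks assembly of the membrane attack complex, was at 248, 257 and 257 CPM in knockdown libraries and at 301, 303 and 318 CPM in control libraries. In each case all 3 knockdown libraries were below all 3 control libraries. The fitted falls were 2.11-fold for CD55 (log2 change -1.08, SE 0.03; edgeR adjusted p = 7.56e-21), 1.72-fold for CD46 (-0.78, SE 0.03; adjusted p = 2.61e-17) and 1.21-fold for CD59 (-0.27, SE 0.04; adjusted p = 3.13e-07). Per length, CD55 was at 147 FPKM in the knockdown and 297 FPKM in the control, CD46 at 30.6 FPKM in the knockdown and 50.4 FPKM in the control, and CD59 at 24.5 FPKM in the knockdown and 28.4 FPKM in the control. CLU, at 32.7 FPKM in the knockdown and 26.4 FPKM in the control, was above CD46 and CD59 in the knockdown and below both in the control. By this measure 16 of the 57 genes reached 1 FPKM in at least 1 group; rescaled to TPM, 27 reached a level of 1.

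A further 100 genes were listed beside these 57: other carriers, apolipoproteins, acute phase, clotting and complement genes, and hepatic transcription factors. Of these, 16 had no count in any library and 39 had enough reads to test: 18 fell, 8 rose and 13 missed the threshold. That is 46.2% lower and 20.5% higher, against 27.9% and 28.0% of all genes tested. Clotting and fibrinolysis genes outside the 57 were the best represented, with 13 of 19 tested: 9 fell, 2 rose and 2 showed no call. Of 29 further complement genes 7 were tested: 2 fell, 1 rose and 4 showed no call. Of 14 further carriers and secreted proteins 6 were tested, and 4 fell and 2 rose. None of the 3 tested lipid-related plasma genes passed.

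The protein C receptor PROCR, which presents protein C for activation, was at 30.05 ± 3.38 CPM in the knockdown and 86.1 ± 5.18 CPM in the control (SD, n = 3 each; log2 change -1.52, SE 0.07; adjusted p = 1.07e-16, edgeR). Thrombomodulin (THBD), its partner in that activation and named after its values were seen, averaged 2.96 ± 0.852 CPM in the knockdown and 6.22 ± 0.736 CPM in the control (adjusted p = 3.65e-05, edgeR). The plasminogen activator PLAT was at 5.46 ± 0.648 CPM in the knockdown and 23.96 ± 1.66 CPM in the control (log2 change -2.13, SE 0.11; edgeR adjusted p = 7.39e-15). The urokinase receptor PLAUR was at 50.4 ± 4.23 CPM in the knockdown and 108 ± 2.68 CPM in the control (log2 change -1.10, SE 0.05; edgeR adjusted p = 1.43e-15), while plasminogen itself had no count.

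C4BPA, the alpha chain of the fluid-phase inhibitor of C4b, was at 3.51 ± 0.632 CPM in the knockdown and 17.1 ± 1.94 CPM in the control (log2 change -2.28, SE 0.14; edgeR adjusted p = 2.13e-13). C4BPB, its beta chain, named after its values were seen, averaged 339 ± 8.24 CPM in the knockdown and 493 ± 29.3 CPM in the control (edgeR adjusted p = 4.88e-12). C1QBP, a mostly mitochondrial protein that can bind C1q, was at 207 ± 2.29 CPM in the knockdown and 173 ± 4.40 CPM in the control (log2 change 0.26, SE 0.04; edgeR adjusted p = 1.32e-06). Fibronectin (FN1) was at 15.2 ± 1.23 CPM in the knockdown and 6.02 ± 0.370 CPM in the control (log2 change 1.34, SE 0.12; edgeR adjusted p = 3.7e-10). PZP, a protease inhibitor related to A2M, had 31, 28 and 34 counts in knockdown libraries and 1, 0 and 2 in control libraries (edgeR adjusted p = 3.44e-08), the opposite direction to the few counts of A2M. PZP passed the count filter only through its knockdown libraries.

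**Figure D4:**
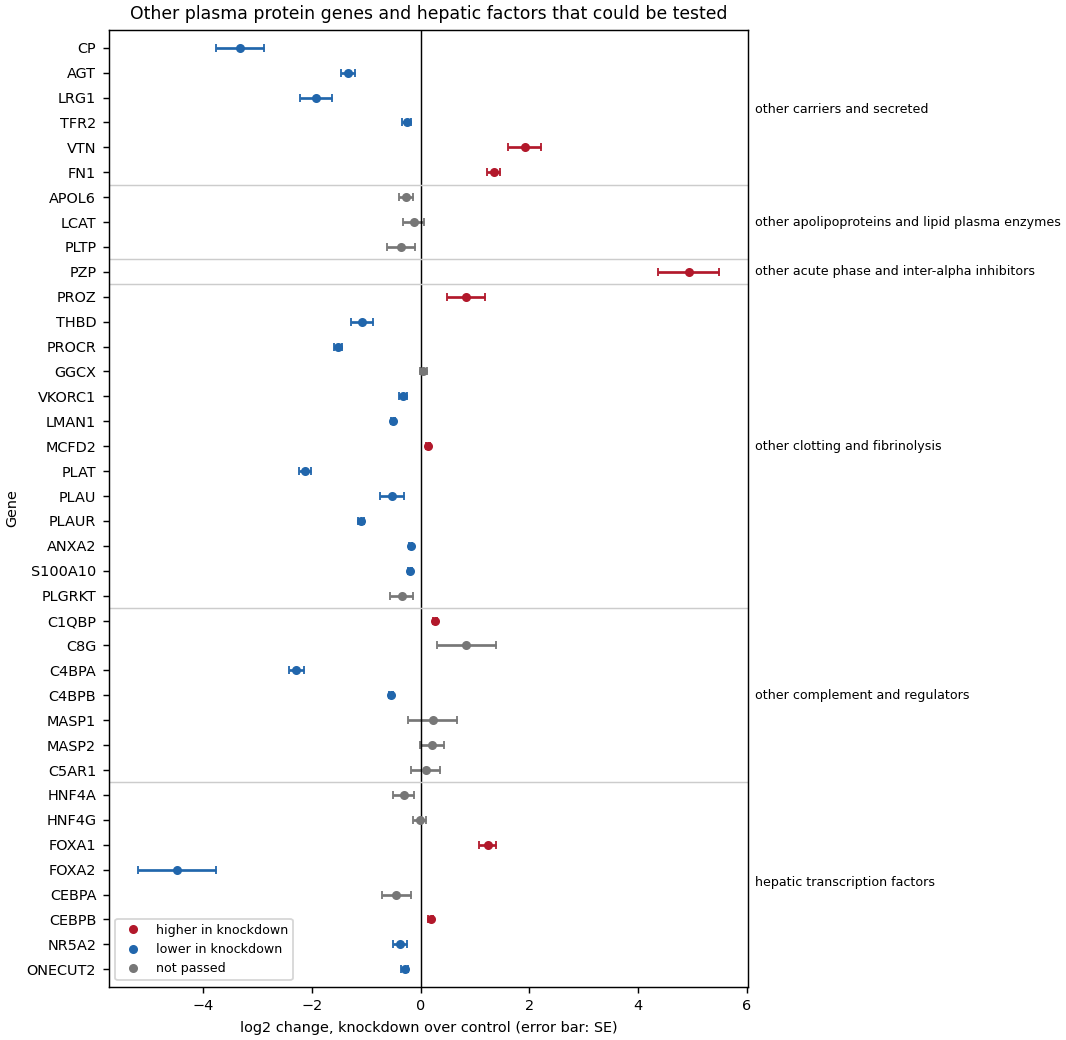
log2 change, knockdown over control, with its SE as error bar, for 38 of the 39 tested genes among 100 further plasma protein genes and hepatic transcription factors; red and blue mark genes called higher and lower at an edgeR adjusted p under 0.05. PROCR, PLAT, PLAUR and C4BPA lie below -1, and 18 genes are called lower against 8 called higher.

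Hepatic transcription factors, which drive most of these genes in liver, differed widely in level. Of 15, 2 had no count in any library, 3 had at most 3 counts in every library and 9 were tested. Of the 9 tested, 3 fell, 2 rose and 4 showed no call. That is 33.3% lower and 22.2% higher, against 27.9% and 28.0% of all genes tested. The pioneer factor gene FOXA1 was at 9.51 ± 0.116 CPM in the knockdown and 4.07 ± 0.517 CPM in the control (log2 change 1.23, SE 0.15; edgeR adjusted p = 8.51e-08). The following were named after their values were seen. CEBPB was at 165 ± 10.7 CPM in the knockdown and 145 ± 9.22 CPM in the control (edgeR adjusted p = 0.00185). ONECUT2 was at 128.5 ± 1.64 CPM in the knockdown and 158 ± 24.4 CPM in the control (edgeR adjusted p = 5.19e-04), and its groups overlapped. FOXA2 had 2, 0 and 0 counts in knockdown libraries and 18, 15 and 25 in control libraries (edgeR adjusted p = 6.63e-06). It passed the count filter only through its control libraries. HNF4A, a nuclear receptor gene, was at 3.63 ± 0.317 CPM in the knockdown and 4.48 ± 0.772 CPM in the control (edgeR adjusted p = 0.172).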

How the data were processed

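Total RNA went through Trizol extraction and TruSeq RNA library preparation, per the labels' protocols. The submitters' processing notes name hg38. Which aligner, counter, annotation and strand setting were used is not given in the sources used here. Reads of overlapping genes may have been counted together. The authors deposited raw whole-number counts and FPKM values per gene, per the file headers, with each gene's exonic length, a deposited quantity of another kind. FPKM recomputed from counts, length and library total matched within 0.0051 in 100% of values. FPKM values were used to compare levels between genes.

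Counts of the 6 libraries entered edgeR 4.0.16 under R 4.3.3 (TMM, filterByExpr with a minimum count of 10, quasi-likelihood F test, two-sided, Benjamini-Hochberg over 16354 genes). The SE is the log2 change divided by the square root of F. Alternatives used DESeq2 1.42.0, limma 3.58.1 with trend and edgeR variants, and the edgeR fit was tested on simulated data. Exon overlaps used GENCODE release 29, counting genes at 1 CPM or more. Every member is described, and of further genes the 4 with the smallest p in each direction. Members and lists were chosen with earlier results of these data known. No 2 libraries of a group were within sampling noise (chi-square averaged over genes, 1.89 to 4.38 for each pair of libraries). No batch is labelled. Of the 57 genes, 40 had a RefSeq promoter entry. Values of some further genes are not reported here.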

Additional observations from a re-analysis of the deposited data

How the results depend on the processing

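Of the 20 members called, 14 kept direction and call in every one of the alternatives that could be run on them. F3, F8, CFD, FGA, FGG and C4A lost theirs in at least 1, as given with each gene; the causes were not tested. Members called numbered 6 higher and 14 lower, and 4 to 8 higher and 7 to 14 lower over all alternatives. The low value of 7 lower came with limma on log2(FPKM + 0.1) and on log2(FPKM + 1), both run on genes averaging 1 FPKM or more, which drops low members from the test. CFD was kept and still lost its call. These limma fits also used no TMM factors. The median log2 change over the genes kept was 0.07 and 0.06 in them, against 0.01 in the main fit. The parts of filter, scale and test were not told apart. Over all genes these fits called 2915 and 2925 lower, and among the 100 further genes 5 higher and 10 lower in each. APOL2 passed in both (adjusted p = 0.0216 and 0.0213; limma). Rescaled to TPM, 27 members reached a level of 1, against 16 in FPKM, since FPKM summed to 271500 to 291300 per library. F10 and C2, which did not pass, changed sign without control replicate 3 (-0.027) and without control replicate 2 (0.086); without each library in turn they ranged from -0.03 to 0.65 and from -0.44 to 0.09. With the replicate number as a block, edgeR called 5 members higher and 14 lower, with 4441 and 4408 of all genes. Same-numbered libraries did not deviate together (correlations 0.02, -0.05 and -0.04 across genes; 2 of 6 libraries correlated best with their own number), so the numbers give no pairing. For members with under 20 counts per library, depth limits what can be seen.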
